A study of Mus musculus with 12 samples.

Results

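The 10 genes described here code for parts of the bone morphogenetic protein (BMP) pathway and its feedback: the ligands Bmp2 and Bmp4, the pseudoreceptor Bambi, the pathway Smad Smad9, the inhibitory Smads Smad6 and Smad7, and the Id genes Id1, Id2, Id3 and Id4. They were chosen by name, as probe sets whose platform annotation gave exactly 1 of these symbols. Each gene had 1 such probe set, so the 10 genes stood for 10 of 41345 probe sets and 10 of 22180 genes measured with a single symbol. RNA came from MLE12, a mouse distal lung epithelial line derived from cells transformed by the SV40 large T antigen, and was measured on 12 Affymetrix arrays. Lentiviral pLKO.1 shRNA constructs were used, in 4 groups of 3 arrays: shRNA against NANCI, the scrambled shRNA of the NANCI set, shRNA against LL34, and the scrambled shRNA of the LL34 set. NANCI and LL34 are long noncoding RNAs. All groups had the same handling, namely 12 h of infection at 60% confluency with 8 µg/ml polybrene, 65 h of subculture, and medium with 2% fetal bovine serum, insulin, transferrin, selenite, hydrocortisone and beta-estradiol. The groups come from a single transformed line. The labels do not say whether the replicates were separate infections, and a p-value here covers only how far these arrays spread.

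BMP ligands bring together type I and type II receptor kinases, which phosphorylate Smad1, Smad5 and Smad9. These join Smad4, enter the nucleus and switch on genes that include Id1, Id2, Id3, Smad6 and Smad7. Smad6 and Smad7 then restrain the receptors and Smads, and Bambi, which resembles a type I receptor but has no kinase domain, does so at the membrane. Id proteins bind basic helix-loop-helix (bHLH) transcription factors and keep them off DNA. In the developing lung Bmp4 is made at the tips of the growing buds, and BMP signalling takes part in setting the fate of the distal epithelium.

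The targeted RNA was checked first. Sfta3-ps, which the mouse gene table lists with the synonym Nanci, measured 8.75, 9.19 and 9.01 (log2 signal) in NANCI shRNA cells, against 12.05, 11.83 and 11.81 in their scrambled cells. That is 13.3% of the scrambled level (limma adjusted p = 1.72e-07). Sfta3-ps also fell with the LL34 shRNA, at 11.28, 11.54 and 11.19 in LL34 shRNA cells, against 11.99, 12.09 and 11.95 in LL34 scrambled cells. The groups did not overlap there either, and the level was 62.6% of scrambled (limma adjusted p = 0.00284). No probe set carried the name LL34, so the LL34 RNA was not analysed here. Array medians were 6.84 to 6.88 in the NANCI set and 6.54 to 6.61 in the LL34 set, as if the sets had been normalized apart, so tests compare arrays within a set. LL34 scrambled replicate 3 stood somewhat apart, with the lowest mean correlation with its own group (0.988). In the LL34 set many probe sets had exactly equal values on all arrays of a group (464 in LL34 shRNA cells and 212 in LL34 scrambled cells), but none of the 10 genes did. At least 2 arrays of a group were equal for 3590 and 2712 probe sets. The pathway genes Nog, Chrd and Tcf3, named below, were among them, but none of the 10 genes. Of the 10 genes Smad7 alone had an equal pair across groups, 9.07 on LL34 shRNA replicate 1 and on LL34 scrambled replicate 3.

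Markers of the labelled cell type were present, Sftpc and Sftpb among them. The surfactant gene Sftpa1 (5.86 to 6.50), the adhesion gene Epcam (6.12 to 6.80) and the keratin gene Krt18 (6.36 to 6.96) were lower than both. Their mean levels stood at percentiles 39.1, 45.2 and 49.1 of all probe sets. The summed linear signal of the 9 lung epithelial markers was 5182 to 5808 in NANCI shRNA cells, against 9387 to 10404 in NANCI scrambled cells. It was 7245 to 7700 in LL34 shRNA cells, against 8314 to 10062 in LL34 scrambled cells. With the NANCI shRNA 4 of the 9 fell: Nkx2-1, Abca3, Cdh1 and Krt8, and none rose. With the LL34 shRNA 3 of the 9 fell (Nkx2-1, Sftpc and Krt8) and 2 rose (Sftpb and Epcam). Of all genes with a single symbol 13.2% rose and 13.6% fell with the NANCI shRNA, and 9.77% and 10.3% with the LL34 shRNA. The LL34 call of Nkx2-1 (limma adjusted p = 0.0327) was lost in 5 of 12 fits with an array left out. The 5 leukocyte markers summed to 876 to 976 in NANCI shRNA cells and 607 to 634 in NANCI scrambled cells. Among them Cd68, a lysosomal protein, rose by 0.88, and the pan-leukocyte gene Ptprc was at 4.97 to 5.55 on all arrays. The same 5 markers summed to 479 to 490 in LL34 shRNA cells and 529 to 589 in LL34 scrambled cells. Of the 5 endothelial markers the receptor gene Tek fell in both knockdowns, and of the 6 mesenchymal markers none passed the test in either. The part of these marker shifts in the results below was not tested. In bulk RNA fewer cells of a type and less RNA per cell cannot be told apart.

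Against their own scrambled arrays, cells given the NANCI shRNA had more RNA for 5 of the 10 genes and less Bambi. The ligands Bmp2 and Bmp4 did not move beyond their error, while the further ligands Bmp5 and Bmp6, described below, fell. Id2, Id3, Smad6, Smad7 and Smad9 rose and Bambi fell, 6 of the 10 genes (5 higher, 1 lower). Of all genes with a single symbol 26.8% passed the test, 13.2% higher and 13.6% lower. The same 6 had shRNA and scrambled arrays that did not overlap, as had 40.5% of all genes. Cells given the LL34 shRNA went the other way for most of them. Bmp2, Id1, Id2, Id3, Smad6 and Smad9 fell and Bambi rose, 7 of the 10 genes (1 higher, 6 lower). Of all genes 20.0% passed, 9.77% higher and 10.3% lower. The arrays of the 2 groups did not overlap for these 7, nor for 35.3% of all genes. The median change of the 10 genes was 0.26 on the log2 scale with the NANCI shRNA, against 0.0042 over all genes, and -0.57 with the LL34 shRNA, against -0.019 over all genes. These counts rest on each set's own scrambled arrays. Against all 6 scrambled arrays taken as 1 group, after quantile normalization over all 12 arrays, 2 of the 10 genes passed with the NANCI shRNA (Smad7 and Bambi) and 2 with the LL34 shRNA (Bmp2 and Bambi). In those fits 21.6% and 14.9% of all genes passed, shares near that of the 10 genes.

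**Figure D1:**
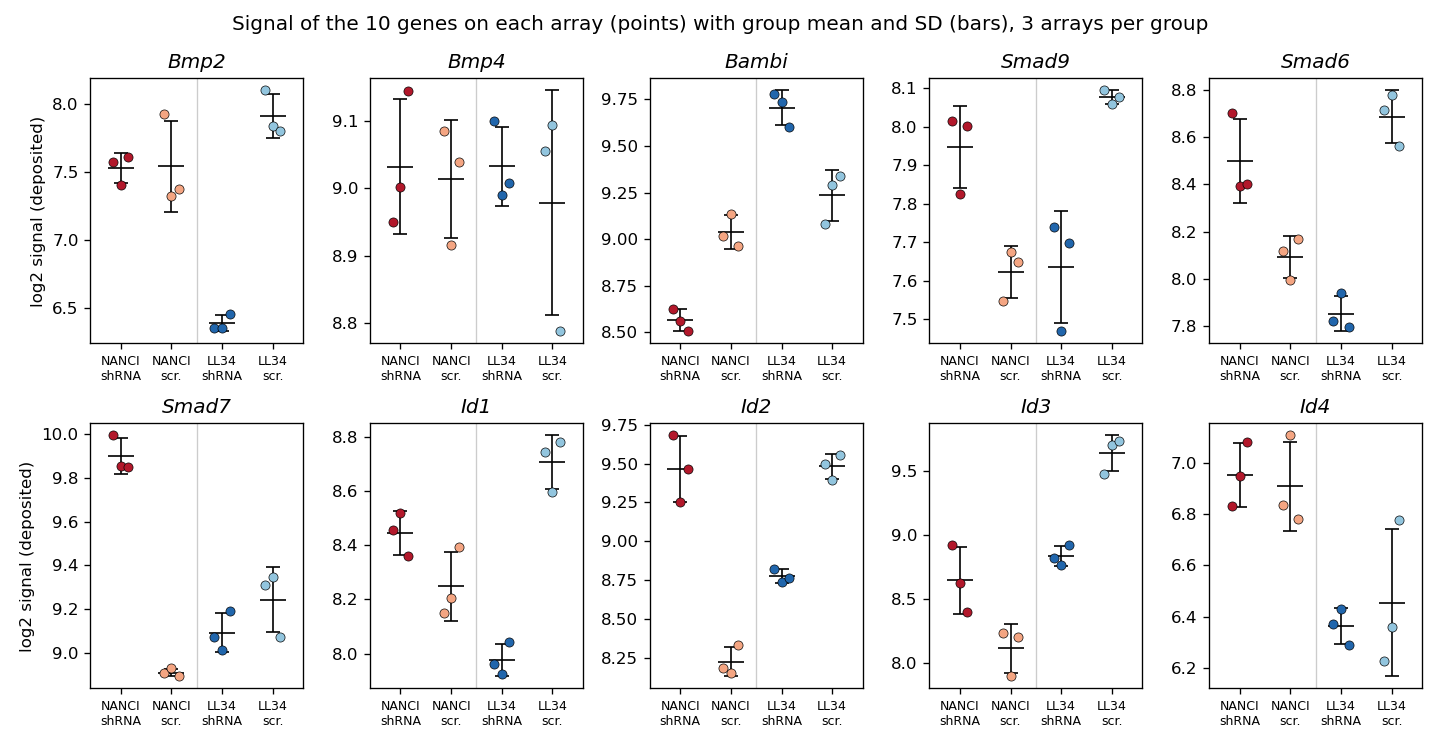
Log2 signal of each of the 10 genes (1 panel per gene, vertical axis) on the 12 arrays, in 4 columns for the NANCI shRNA, NANCI scrambled, LL34 shRNA and LL34 scrambled groups. Points are arrays, and bars are group means with the SD of 3 arrays. Id2 sits near 9.47 with the NANCI shRNA against 8.22 with its scrambled, and near 8.78 with the LL34 shRNA against 9.48 with its scrambled.

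The 2 ligands behaved unlike each other. Bmp2, a secreted ligand that signals through the BMP receptors, measured 7.58, 7.40 and 7.61 in NANCI shRNA cells, against 7.93, 7.32 and 7.38 in NANCI scrambled cells. These arrays overlapped, and the difference was -0.01 (SE 0.144, 95% interval -0.33 to 0.30, limma adjusted p = 0.974). In LL34 shRNA cells Bmp2 measured 6.35, 6.35 and 6.45, against 8.10, 7.84 and 7.80 in LL34 scrambled cells. All 3 LL34 shRNA arrays lay well below every other array of the series. Bmp2 fell to 34.7% of the scrambled level, a change of -1.53 (SE 0.144, limma adjusted p = 4.79e-05). It was the largest change of the 10 genes in either knockdown. Against all 6 scrambled arrays the change was -1.21 (limma adjusted p = 0.00181).

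Bmp4, the ligand best known from lung bud tips, did not move beyond its error. It measured 8.95, 9.00 and 9.14 in NANCI shRNA cells, against 9.08, 8.92 and 9.04 in NANCI scrambled cells. It measured 9.10, 8.99 and 9.01 in LL34 shRNA cells, against 9.05, 9.09 and 8.79 in LL34 scrambled cells. All 4 groups overlapped. The differences were 0.02 (95% interval -0.18 to 0.21, limma adjusted p = 0.938) with the NANCI shRNA and 0.05 (95% interval -0.14 to 0.25, limma adjusted p = 0.779) with the LL34 shRNA. A change of Bmp4 beyond 0.25 in either direction therefore lay outside both intervals.

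Bambi ran opposite to the Id and Smad genes that moved. In NANCI shRNA cells it measured 8.63, 8.56 and 8.51, against 9.01, 9.14 and 8.96 in NANCI scrambled cells. Bambi fell to 72.0% of the scrambled level, a change of -0.47 (SE 0.0817, limma adjusted p = 0.00150). In LL34 shRNA cells Bambi measured 9.78, 9.74 and 9.60, against 9.08, 9.29 and 9.34 in LL34 scrambled cells. It rose by 0.47 there (SE 0.0817, limma adjusted p = 0.00237), to 139% of the scrambled level. The groups did not overlap in either set. Bambi was also the only one of the 10 genes called in both knockdowns when all 6 scrambled arrays served as 1 group, at -0.62 with the NANCI shRNA (limma adjusted p = 0.00247) and 0.58 with the LL34 shRNA (limma adjusted p = 0.00674).

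Smad9, one of the Smads that BMP receptors phosphorylate, measured 8.02, 7.82 and 8.00 in NANCI shRNA cells, against 7.55, 7.67 and 7.65 in NANCI scrambled cells. The arrays did not overlap, and Smad9 rose by 0.32 (SE 0.0806, limma adjusted p = 0.0142). The LL34 shRNA cells gave 7.74, 7.47 and 7.70, against 8.09, 8.06 and 8.08 in LL34 scrambled cells. It fell by 0.44 (SE 0.0806, limma adjusted p = 0.00323), with no overlap. The NANCI call was lost when NANCI shRNA replicate 1, NANCI shRNA replicate 3 or NANCI scrambled replicate 1 was left out (limma adjusted p = 0.0527 to 0.0602). Against all 6 scrambled arrays neither call held, at 0.023 with the NANCI shRNA (limma adjusted p = 0.948) and -0.20 with the LL34 shRNA (limma adjusted p = 0.47).

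Smad6, which preferentially blocks BMP receptor signalling, measured 8.70, 8.39 and 8.40 in NANCI shRNA cells, against 8.12, 8.00 and 8.17 in NANCI scrambled cells. Smad6 rose to 132% of the scrambled level, a change of 0.41 (SE 0.0943, limma adjusted p = 0.00975). Smad6 in LL34 shRNA cells measured 7.82, 7.94 and 7.80, against 8.72, 8.78 and 8.56 in LL34 scrambled cells. It fell to 56.2%, a change of -0.83 (SE 0.0943, limma adjusted p = 0.000161). The groups did not overlap in either set. Against all 6 scrambled arrays neither call held, at 0.052 with the NANCI shRNA (limma adjusted p = 0.891) and -0.54 with the LL34 shRNA (limma adjusted p = 0.1).

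Smad7, which blocks both BMP and TGF-beta receptors, rose with the NANCI shRNA and missed the threshold with the LL34 shRNA. It measured 9.99, 9.85 and 9.85 in NANCI shRNA cells, against 8.91, 8.93 and 8.90 in NANCI scrambled cells. The groups lay far apart, and Smad7 rose by 0.99 (SE 0.0806, limma adjusted p = 8.78e-06), to 198% of the scrambled level. In LL34 shRNA cells it measured 9.07, 9.01 and 9.19, against 9.31, 9.35 and 9.07 in LL34 scrambled cells. The difference was -0.15 (SE 0.0806, 95% interval -0.33 to 0.03, limma adjusted p = 0.275), and without LL34 scrambled replicate 3 it was -0.24 and passed (limma adjusted p = 0.0464). The NANCI call held against all 6 scrambled arrays, at 0.77 (limma adjusted p = 0.00107).

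Of the 4 Id genes, 2 rose with the NANCI shRNA and 3 fell with the LL34 shRNA. Id1, the classic immediate BMP target, measured 8.46, 8.52 and 8.36 in NANCI shRNA cells, against 8.15, 8.20 and 8.39 in NANCI scrambled cells. A single scrambled array overlapped the shRNA arrays, and the difference of 0.20 missed the threshold (SE 0.0797, 95% interval 0.02 to 0.37, limma adjusted p = 0.121). Without that array, NANCI scrambled replicate 3, it was 0.27 and passed (limma adjusted p = 0.0411). In LL34 shRNA cells Id1 measured 7.96, 7.92 and 8.04, against 8.75, 8.60 and 8.78 in LL34 scrambled cells. Id1 fell to 60.2% of the scrambled level with no overlap, a change of -0.73 (SE 0.0797, limma adjusted p = 0.000125).

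Id2, which is also induced by BMP-independent signals, had the largest rise of the 10 genes. It measured 9.68, 9.25 and 9.46 in NANCI shRNA cells, against 8.19, 8.15 and 8.33 in NANCI scrambled cells. Every shRNA array exceeded every scrambled array by a wide margin. Id2 rose by 1.24 (SE 0.0985, limma adjusted p = 7.29e-06), to 237% of the scrambled level. Id2 in LL34 shRNA cells measured 8.82, 8.74 and 8.76, against 9.50, 9.39 and 9.56 in LL34 scrambled cells. It fell to 61.3%, again with no overlap, a change of -0.71 (SE 0.0985, limma adjusted p = 0.000598).

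Id3 followed the same course with wider spread. It measured 8.92, 8.63 and 8.40 in NANCI shRNA cells, against 8.24, 7.90 and 8.21 in NANCI scrambled cells. It rose by 0.53 (SE 0.133, limma adjusted p = 0.0145), a call lost without NANCI shRNA replicate 1 (0.40, limma adjusted p = 0.0556) or NANCI scrambled replicate 2 (0.42, limma adjusted p = 0.0573). Id3 in LL34 shRNA cells measured 8.82, 8.77 and 8.92, against 9.48, 9.71 and 9.73 in LL34 scrambled cells. It fell to 57.3% of the scrambled level, a change of -0.80 (SE 0.133, limma adjusted p = 0.00180). Id4, the family member best known from neural progenitors, was near the middle of all probe sets by level and passed in neither knockdown. It measured 6.83, 6.95 and 7.08 in NANCI shRNA cells, against 6.83, 7.11 and 6.78 in NANCI scrambled cells, a difference of 0.04 (95% interval -0.25 to 0.34, limma adjusted p = 0.897). It measured 6.37, 6.43 and 6.29 in LL34 shRNA cells, against 6.23, 6.36 and 6.78 in LL34 scrambled cells, a difference of -0.09 (95% interval -0.39 to 0.21, limma adjusted p = 0.752).

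The Id calls depended on which scrambled arrays served as control. Against all 6 scrambled arrays, Id2 with the NANCI shRNA was at 0.57 (limma adjusted p = 0.32) and Id3 turned to -0.26 (limma adjusted p = 0.725). With the LL34 shRNA, Id1 was at -0.52 (limma adjusted p = 0.0643), Id2 at -0.083 (limma adjusted p = 0.893) and Id3 at -0.035 (limma adjusted p = 0.962).

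**Figure D2:**
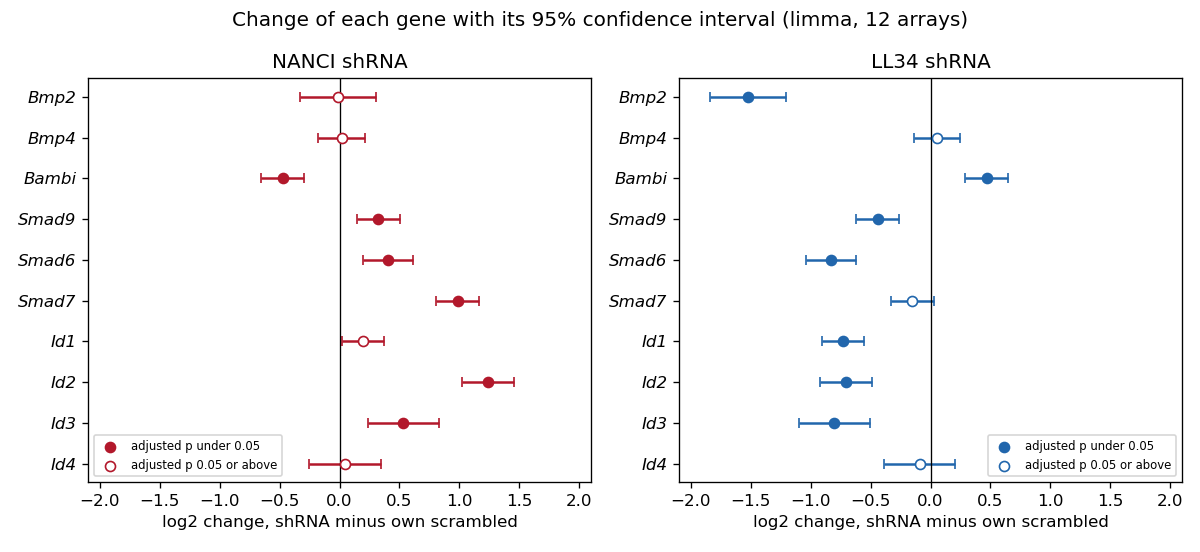
Log2 change (shRNA minus the scrambled of its own set) of the 10 genes with 95% intervals of the limma fit, for the NANCI shRNA and the LL34 shRNA, over 3 arrays per group. Id2, Id3, Smad6 and Smad9 lie right of 0 with the NANCI shRNA and left of 0 with the LL34 shRNA, and Bambi does the reverse.

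Promoters of the Id and Smad genes are shown because most of these genes moved in 1 direction within each knockdown, against its own scrambled arrays. Against all scrambled arrays together only Smad7 among them was called, with the NANCI shRNA. A link between promoters and changes was not tested. Windows from RefSeq's promoter table (GRCm38.p6) were used for 6 of the 10 genes. Those of Bmp2, Id1, Smad7 and Bambi were not examined, so nothing is said of their promoters. Each window runs 5′ to 3′ from 250 bases before the listed start to 30 bases from it. The search covered both strands for GGCGCC (a GC-rich motif that Smad1 and Smad5 bind), GTCTAGAC (the Smad binding palindrome), CAAGTG (the core of the Nkx2-1 motif) and TGACGTCA (the cAMP response element), and capitals mark matches, none of which overlapped. The promoters are Smad6 (chr9:64022030-64022309, minus strand), Smad9 (chr3:54755332-54755611, plus strand), Id2 (chr12:25096063-25096342, minus strand), Id3 (chr4:136143572-136143851, plus strand) and Id4 (chr13:48260866-48261145, plus strand).
Smad6: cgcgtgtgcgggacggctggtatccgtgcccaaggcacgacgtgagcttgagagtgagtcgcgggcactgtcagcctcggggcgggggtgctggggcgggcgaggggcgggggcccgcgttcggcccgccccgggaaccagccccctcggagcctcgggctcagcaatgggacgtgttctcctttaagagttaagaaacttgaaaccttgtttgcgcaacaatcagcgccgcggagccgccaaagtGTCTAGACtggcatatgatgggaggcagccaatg
Smad9: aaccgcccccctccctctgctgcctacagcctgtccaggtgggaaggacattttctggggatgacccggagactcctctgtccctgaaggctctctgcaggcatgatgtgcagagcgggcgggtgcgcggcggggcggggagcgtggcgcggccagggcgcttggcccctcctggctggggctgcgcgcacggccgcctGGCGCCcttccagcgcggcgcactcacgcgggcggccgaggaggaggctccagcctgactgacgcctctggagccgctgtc
Id2: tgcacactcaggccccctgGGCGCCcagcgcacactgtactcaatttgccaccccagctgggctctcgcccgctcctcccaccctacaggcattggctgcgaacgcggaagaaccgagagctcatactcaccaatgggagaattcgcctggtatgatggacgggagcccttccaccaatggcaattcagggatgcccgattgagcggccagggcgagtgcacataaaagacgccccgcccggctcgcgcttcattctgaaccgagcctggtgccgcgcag
Id3: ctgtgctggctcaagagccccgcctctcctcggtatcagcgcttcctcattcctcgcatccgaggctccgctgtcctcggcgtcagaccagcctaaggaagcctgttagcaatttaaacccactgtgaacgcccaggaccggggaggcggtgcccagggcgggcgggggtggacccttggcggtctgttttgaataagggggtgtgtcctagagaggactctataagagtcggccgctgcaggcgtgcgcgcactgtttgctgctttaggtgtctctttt
Id4: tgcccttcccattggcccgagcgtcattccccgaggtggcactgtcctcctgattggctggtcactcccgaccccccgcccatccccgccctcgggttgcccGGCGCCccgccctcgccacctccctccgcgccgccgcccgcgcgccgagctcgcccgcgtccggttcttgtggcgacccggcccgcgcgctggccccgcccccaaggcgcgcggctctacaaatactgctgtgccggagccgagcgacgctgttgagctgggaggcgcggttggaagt

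GTCTAGAC stood in the Smad6 promoter across the listed start, and 0.192% of 32851 promoters held it in the same window. GGCGCC stood in Id2, Id4 and Smad9, and 10.9% of promoters held it. Id4, which passed in neither knockdown, held that motif as did Id2 and Smad9, which passed in both. The Id3 and Bmp4 windows held none of the 4 motifs. CAAGTG and TGACGTCA were in none of the 6 windows, and 12.8% and 1.74% of all promoters held them. The 6 windows had 60.7% to 74.3% G and C, against a median of 52.5% over all promoters. A match describes these letters only.

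The difference between the 2 changes was tested as an interaction in the same limma fit, NANCI change minus LL34 change. It passed for 8 of the 10 genes, 7 with a more positive change in the NANCI set and 1, Bambi, with a more negative one, where 24.4% of all genes passed, 12.0% more positive and 12.3% more negative. The median difference was 1.03, against 0.027 over all genes. Id2 had the largest difference, 1.95 (SE 0.139, limma adjusted p = 5.17e-06), followed by Bmp2 at 1.51 (SE 0.204, limma adjusted p = 0.000345). Id3 differed by 1.34, Smad6 by 1.24, Smad7 by 1.14, Id1 by 0.93, Smad9 by 0.77 and Bambi by -0.94, with limma adjusted p between 4.61e-05 and 0.000661. All 8 differences passed whichever array was left out. Leaving out an array does not test the choice of scrambled group, and the difference was not fitted against all scrambled arrays together. For Id3, LL34 minus NANCI was 1.52 between the scrambled groups and 0.19 between the shRNA groups. For Bambi these gaps were 0.20 and 1.14. Bmp4 differed by -0.03 (95% interval -0.31 to 0.24, limma adjusted p = 0.906) and Id4 by 0.14 (95% interval -0.29 to 0.56, limma adjusted p = 0.729).

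Against each set's own scrambled arrays, called changes ran in opposite directions for 5 of the 10 genes. These were Id2, Id3, Smad6 and Smad9 (higher with the NANCI shRNA, lower with the LL34 shRNA) and Bambi (the reverse). Over all genes 5.52% were called in opposite directions and 5.28% in the same direction. None of the 10 genes was called in the same direction in both knockdowns. Against all scrambled arrays together, after quantile normalization, Bambi alone kept its opposite calls, and Id2, Id3, Smad6 and Smad9 were called in neither knockdown. Bmp2 and Id1 passed only in the LL34 set and Smad7 only in the NANCI set, and for each of these 3 the interaction test above also passed.

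Levels across the 4 groups are given as a description, with no test between the sets. Id2 was highest in LL34 scrambled and NANCI shRNA cells, whose arrays overlapped, then lower in LL34 shRNA cells and lowest in NANCI scrambled cells. Smad6 was likewise highest in LL34 scrambled and NANCI shRNA cells, but lowest in LL34 shRNA cells. Id3 was highest in LL34 scrambled cells, followed by LL34 shRNA and NANCI shRNA cells, which overlapped, and lowest in NANCI scrambled cells. Smad9 was highest in LL34 scrambled cells, then in NANCI shRNA cells, with LL34 shRNA and NANCI scrambled cells overlapping below. Id1 was highest in LL34 scrambled cells and lowest in LL34 shRNA cells, with the NANCI groups overlapping between them.

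Smad7 had another order, with NANCI shRNA cells above all other groups, LL34 scrambled and LL34 shRNA cells overlapping next, and NANCI scrambled cells lowest. Bambi was highest in LL34 shRNA cells and lowest in NANCI shRNA cells, with both scrambled groups overlapping between. Bmp2 was lowest in LL34 shRNA cells. Its NANCI scrambled arrays overlapped both the LL34 scrambled and the NANCI shRNA arrays. The LL34 scrambled arrays (7.80 to 8.10) lay above the NANCI shRNA arrays (7.40 to 7.61). The Id4 levels were higher in both NANCI groups than in both LL34 groups, a gap that closed to overlap after quantile normalization over all arrays. After that normalization Smad6 no longer overlapped between LL34 scrambled and NANCI shRNA cells, nor Smad7 between LL34 scrambled and LL34 shRNA cells. Bmp2 no longer overlapped between NANCI scrambled and LL34 scrambled cells. The order of the group means stayed the same for these genes.

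The 2 scrambled groups differed from each other for several of the 10 genes. LL34 scrambled minus NANCI scrambled was 1.52 for Id3 and 1.26 for Id2 in the deposited values, and 1.63 and 1.36 after quantile normalization over all arrays. It was 0.59 for Smad6, 0.46 for Id1, 0.45 for Smad9, 0.37 for Bmp2, 0.33 for Smad7, 0.20 for Bambi, -0.03 for Bmp4 and -0.45 for Id4 in the deposited values. The median over all probe sets was -0.217 in the deposited values and -0.0098 after quantile normalization. Between the shRNA groups, LL34 shRNA minus NANCI shRNA was 0.19 for Id3 and -0.69 for Id2, and 1.14 for Bambi. For Id3 the scrambled groups were thus farther apart than the shRNA groups, while for Bambi the shRNA groups were farther apart than the scrambled groups. Array set and scrambled group cannot be told apart here.

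**Figure D3:**
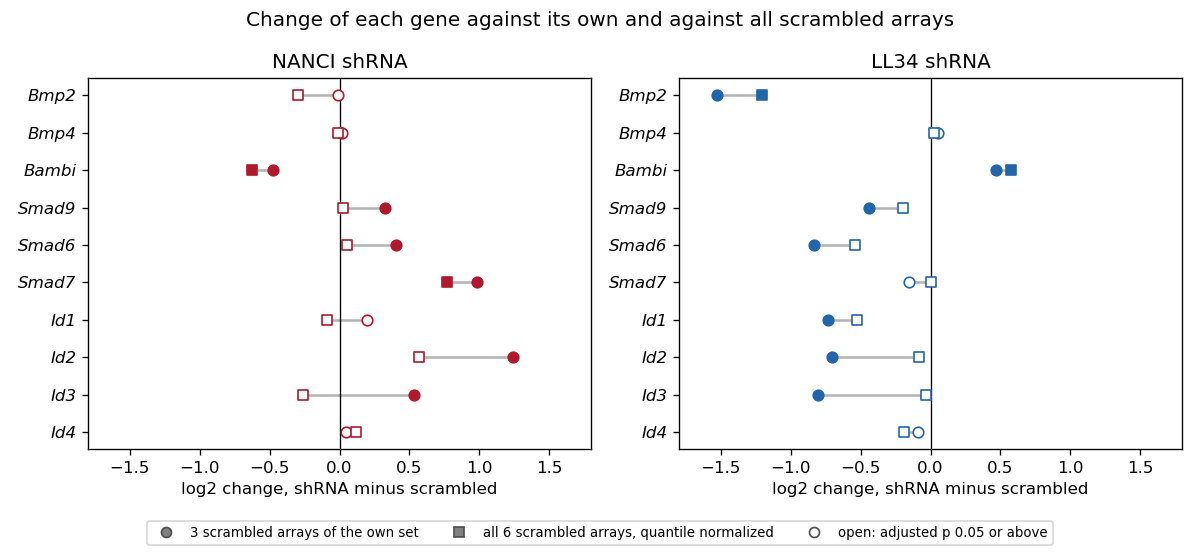
Log2 change of the 10 genes with the NANCI shRNA and with the LL34 shRNA, against the scrambled arrays of the own set as deposited and against all 6 scrambled arrays as 1 group after quantile normalization. Smad7 and Bambi with the NANCI shRNA and Bmp2 and Bambi with the LL34 shRNA pass under both, while Id3 with the NANCI shRNA is at 0.53 and -0.26.

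Other genes of the pathway came from a list of 76 names by role, of which 69 were measured with a single symbol. With the NANCI shRNA 5 rose and 13 fell, with a median change of -0.015. With the LL34 shRNA 8 rose and 12 fell, with a median of -0.089. Over all genes 26.8% were called with the NANCI shRNA (13.2% higher, 13.6% lower) and 20.0% with the LL34 shRNA (9.77% higher, 10.3% lower). The counts by role below were not tested against these shares. The difference between the changes passed for 17 of the 69 (24.6%), against 24.4% of all genes.

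Among 12 further ligands Bmp5 stood out. It measured 10.77, 10.94 and 10.86 in NANCI shRNA cells, against 12.32, 12.12 and 12.13 in NANCI scrambled cells. It fell by 1.33 (limma adjusted p = 3.57e-06) there and by 0.76 with the LL34 shRNA (limma adjusted p = 0.000296). Bmp6 fell by 0.43 with the NANCI shRNA (limma adjusted p = 0.00316). No further ligand rose in either knockdown.

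Of 10 receptors and co-receptors 2 rose and 1 fell in each knockdown, where 26.8% and 20.0% of all genes were called. Rgmb, a membrane co-receptor for BMP ligands, rose by 0.79 with the NANCI shRNA (limma adjusted p = 9.14e-06) and by 0.42 with the LL34 shRNA (limma adjusted p = 0.00118). Bmpr2, the type II BMP receptor, fell by 0.29 with the NANCI shRNA (limma adjusted p = 0.0207) and by 0.36 with the LL34 shRNA (limma adjusted p = 0.00754). The NANCI call of Bmpr2 was lost when NANCI shRNA replicate 1, NANCI shRNA replicate 2 or NANCI scrambled replicate 1 was left out (limma adjusted p = 0.0695 to 0.0774), and when the NANCI arrays were fitted alone (limma adjusted p = 0.0828). Of the activin type II receptors, which BMP ligands also use, Acvr2b rose by 0.44 with the NANCI shRNA (limma adjusted p = 0.00529) and Acvr2a by 0.42 with the LL34 shRNA (limma adjusted p = 0.00203).

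Among 12 Smads and modifiers, the ubiquitin ligase Smurf2, which marks Smads and receptors for degradation, measured 10.10, 10.13 and 10.25 in NANCI shRNA cells, against 11.10, 11.14 and 11.21 in NANCI scrambled cells. It fell by 0.99 (limma adjusted p = 1.35e-06). With the LL34 shRNA Smurf2 rose by 0.40 (limma adjusted p = 0.00108), the same directions as Bambi. Its relative Smurf1 fell in both, by 0.46 with the NANCI shRNA (limma adjusted p = 0.000815) and by 0.55 with the LL34 shRNA (limma adjusted p = 0.000432). Ube2o, a ubiquitin ligase that acts on Smad6, fell by 0.41 with the LL34 shRNA (limma adjusted p = 0.00224).

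Of 16 extracellular antagonists 5 fell and 0 rose with the NANCI shRNA, and 3 fell and 1 rose with the LL34 shRNA. Over all genes 13.6% fell and 13.2% rose with the NANCI shRNA, and 10.3% and 9.77% with the LL34 shRNA. Noggin (Nog), which binds BMP ligands and blocks them, measured 7.08, 7.08 and 7.36 in LL34 shRNA cells, against 8.36, 8.29 and 8.29 in LL34 scrambled cells. Its values on LL34 scrambled replicates 2 and 3 were exactly equal. Nog fell by 1.14 with the LL34 shRNA (limma adjusted p = 7.93e-06) and by 0.51 with the NANCI shRNA (limma adjusted p = 0.000956). Fstl1, a secreted follistatin-like protein known to restrain Bmp4 in mouse lung, fell by 0.92 with the NANCI shRNA (limma adjusted p = 1.74e-06) and by 1.09 with the LL34 shRNA (limma adjusted p = 1.69e-06). Crim1, a membrane protein that binds BMPs, fell by 0.75 and 0.64 in the NANCI and LL34 knockdowns (limma adjusted p = 8.38e-05 and 0.000481). Chordin (Chrd), another ligand trap, fell by 0.89 with the NANCI shRNA (limma adjusted p = 1.08e-05).

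Of 13 other targets 3 rose and 1 fell with the NANCI shRNA, and 3 rose and 3 fell with the LL34 shRNA. The shares of all genes called were 26.8% and 20.0%. Junb, an AP-1 subunit induced by many signals, rose by 1.40 with the NANCI shRNA (limma adjusted p = 1.23e-05). Cdkn1a, the p21 cell cycle inhibitor, rose by 0.88 with the NANCI shRNA (limma adjusted p = 3.93e-06) and by 0.38 with the LL34 shRNA (limma adjusted p = 0.00174). Atoh8, a bHLH factor gene, followed the direction of Id2 and Smad6, rising by 0.34 with the NANCI shRNA (limma adjusted p = 0.0183) and falling by 0.76 with the LL34 shRNA (limma adjusted p = 0.000197). The NANCI call of Atoh8 was lost without NANCI shRNA replicate 1 or NANCI scrambled replicate 2 (limma adjusted p = 0.0700 to 0.0729), and with the NANCI arrays fitted alone (limma adjusted p = 0.0666). Xiap, an inhibitor of caspases that also takes part in BMP receptor signalling, fell by 0.68 with the NANCI shRNA (limma adjusted p = 3.22e-05). Gata2, a zinc finger factor gene, rose by 0.73 with the LL34 shRNA (limma adjusted p = 0.00127).

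Of 6 bHLH factor genes 2 fell in each knockdown and 0 rose, where 13.6% and 10.3% of all genes fell. Tcf12, an E protein that Id proteins bind, fell by 0.40 with the NANCI shRNA (limma adjusted p = 0.000615), and the E protein Tcf4 fell by 0.30 (limma adjusted p = 0.0458). The Tcf4 call was lost in 11 of 12 fits with an array left out, the exception being that without LL34 scrambled replicate 3. It was also lost after median centring (limma adjusted p = 0.0555) and with the NANCI arrays fitted alone (limma adjusted p = 0.0844). With the LL34 shRNA the repressor Hes1 fell by 0.51 (limma adjusted p = 0.00162) and the E protein Tcf3 by 0.31 (limma adjusted p = 0.0130), the Tcf3 call being lost when the LL34 arrays were fitted alone (limma adjusted p = 0.0619). Against all 6 scrambled arrays, the NANCI calls of Nog (-0.20, limma adjusted p = 0.477) and Atoh8 (0.02, limma adjusted p = 0.954) did not hold, nor did the LL34 calls of Acvr2a, Ube2o, Atoh8, Gata2 and Cdkn1a (limma adjusted p = 0.0910 to 0.730). The other calls of pathway genes given here passed in that fit.

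**Figure D4:**
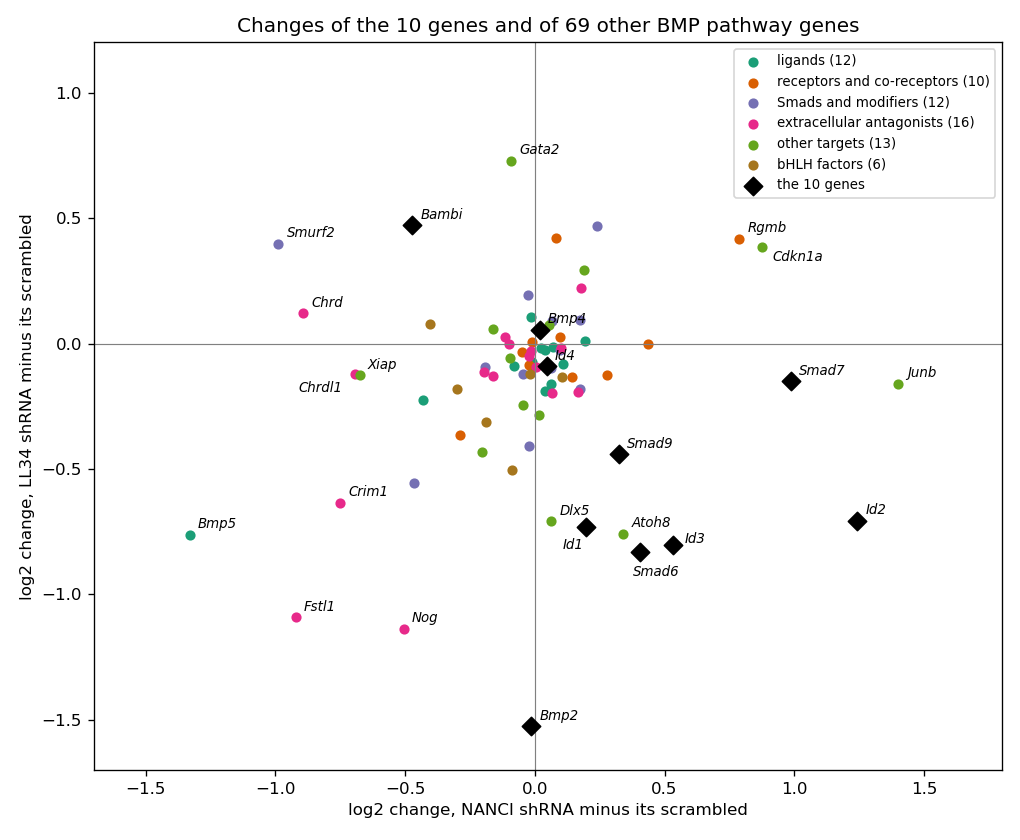
Log2 change with the NANCI shRNA (horizontal) and with the LL34 shRNA (vertical), each against its own scrambled, for the 10 genes (black diamonds) and 69 other pathway genes (points coloured by role). Id2, Id3, Smad6 and Smad9 lie in the lower right, Bambi and Smurf2 in the upper left, and Bmp5, Fstl1, Crim1 and Nog in the lower left.

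How alike the genes were was described by Pearson's r over the 12 arrays after subtracting each set's mean. The points share arrays and fall into 4 groups, so r mainly reports the group means and is given with no test. Id3 and Smad6 were most alike (r = 0.934), followed by Id2 and Smad7 (0.896) and Id1 and Smad6 (0.895). Smad9 lay close to Id2 (0.871) and to Smad6 (0.867), and Bmp2 to Id1 (0.858). Bambi ran opposite to Id2 (-0.892), Smad9 (-0.867) and Smad6 (-0.860). Both ligands were unlike each other (-0.072), and Id4 had no r above 0.198 with any other of the 10 genes, its farthest from 0 being -0.587 with Bmp4.

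**Figure D5:**
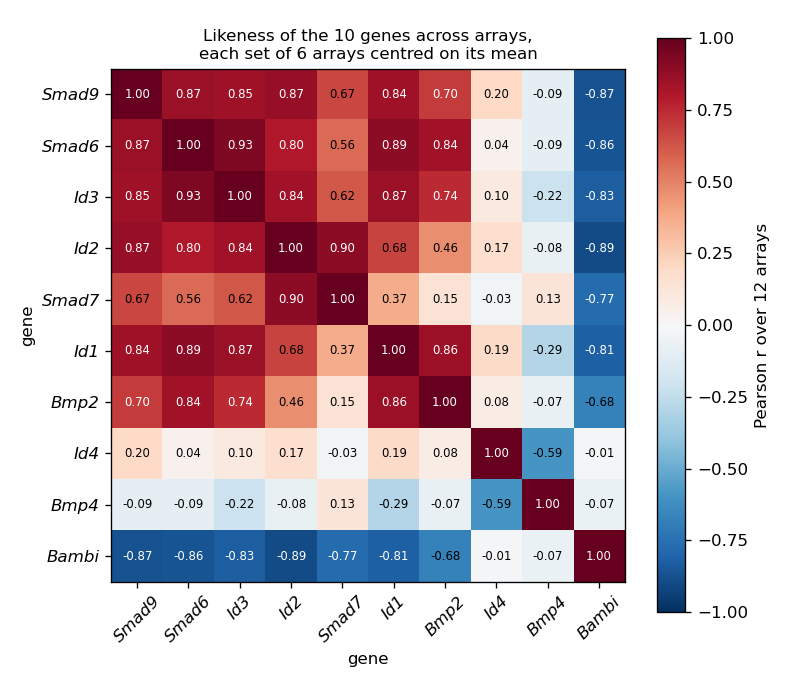
Pearson's r between the 10 genes over 12 arrays after subtracting the mean of each set of 6 arrays, coloured from -1 to 1. Smad9, Smad6, Id3, Id2 and Id1 form a block with r of 0.68 or higher, and Bambi is negative against each of them.

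Outside the 10 genes, the most alike in pattern by the same measure, among genes whose set-centred values ranged over at least 0.5, were as follows. For Bmp2 they were Adgrg1 (0.982), Sh3rf2 (0.980) and Cyp20a1 (0.980). For Id1 they were Zfp503 (0.961), Creg1 (0.957) and Rbms2 (0.957). For Id2 they were Rasl11a (0.992), Nubp1 (0.990) and Cad (0.989). Id3 was most like Ptpa (0.959), Atoh8 (0.957) and Mrps30 (0.957), and Atoh8 is itself on the list of pathway targets above. Smad6 was most like Mcm7 (0.984), Thg1l (0.982) and Eno3 (0.980), and Smad7 most like Psrc1 (0.991), Uqcrfs1 (0.990) and Hif1an (0.989). Smad9 was most like Cbr3 (0.965), Sgpl1 (0.964) and Tcf24 (0.964), and Bambi most like Tmtc1 (0.958), Caskin1 (0.957) and Fnip2 (0.956). For each gene the most alike gene of the array had a higher r than the nearest of the other 9. The search over the array covered far more genes, so this comparison cannot weigh how closely the 10 genes belong together.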

How the data were processed

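Per the file headers and values, the authors deposited log2 signals per probe set. RMA, which corrects background, normalizes by quantiles and summarizes probe sets, is listed with oligo and limma, per the submitters' processing notes, with no versions. The genome build is not given in the sources used. Names came from the platform annotation. Of 41345 probe sets 23521 had 1 symbol, 1814 several and 16010 none, and the brightest probe set stood for a gene.

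The values were fitted with limma 3.58.1 in R 4.3.3 (values read with data.table, version 1.17.8), with 4 group means over all 12 arrays and 8 residual degrees of freedom. P-values were adjusted by Benjamini-Hochberg over 41345 probe sets, with a threshold of 0.05. A change is shRNA minus scrambled, and SE is the fit's standard error. No value column was left unused (0). The fit was tested on simulated data. The number of arrays limits the precision.

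The 10 genes, the pathway list, the markers and the motifs were chosen with earlier results of these data known. From the pathway list up to 3 genes per role and comparison were named, those with the smallest p among those past the threshold, and their values in the other comparison may be given beside them. For likeness the 3 genes with the highest r were named. Other names of the lists were not analysed here. Alternatives were other scalings, a level filter, array weights, another prior, a replicate block, own-set fits, all scrambled arrays as control, the mean over a gene's probe sets, and each array left out.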

Additional observations from a re-analysis of the deposited data

Results flagged for a closer look

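The change in the NANCI set differed from that in the LL34 set, by the limma interaction test, for 8 of the 10 genes and for 16 of the pathway genes named by the rule. Over the whole pathway list it passed for 17 of 69 genes (24.6%), against 24.4% of all genes. It was also past the threshold for Sfta3-ps (-2.24) and Nkx2-1 (-0.73) at the targeted locus. The differences, NANCI change minus LL34 change on the log2 scale, were 1.95 for Id2, 1.51 for Bmp2, 1.34 for Id3, 1.24 for Smad6, 1.14 for Smad7, 0.93 for Id1, 0.77 for Smad9 and -0.94 for Bambi. Against each set's own scrambled arrays, Id2, Id3, Smad6 and Smad9 were called higher in NANCI shRNA cells and lower in LL34 shRNA cells, and Bambi the reverse. Against all scrambled arrays together, after quantile normalization, Bambi alone kept its opposite calls.

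Among the pathway genes the difference was 1.56 for Junb, 1.10 for Atoh8 and -1.39 for Smurf2. For the antagonists it was -1.01 for Chrd and 0.63 for Nog, and Nog fell in both knockdowns, by more with the LL34 shRNA. It was -0.57 for the ligand Bmp5, which fell in both, by more with the NANCI shRNA, and 0.37 for Rgmb, which rose in both. It was 0.44 for Acvr2b, -0.34 for Acvr2a, 0.39 for Ube2o, 0.35 for Smad5, -0.55 for Xiap, -0.82 for Gata2, 0.49 for Cdkn1a, -0.48 for Tcf12 and 0.42 for Hes1. The calls of Acvr2a, Acvr2b, Hes1 and Smad5 were lost in 10, 8, 5 and 2 of the 12 fits that left out an array. Those of Acvr2a, Acvr2b and Ube2o were lost with the replicate block. The array sets and the knockdowns cannot be told apart in these differences.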

How the results depend on the processing

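With all scrambled arrays as 1 control group after quantile normalization, the count of the 10 genes called was 2 with the NANCI shRNA and 2 with the LL34 shRNA, against 6 and 7 with each set's own. Over all genes 21.6% and 14.9% were called in those fits. There Bmp4 was at -0.013, Id1 at -0.092 and Id3 at -0.26 with the NANCI shRNA, and Smad7 at 0.0064 with the LL34 shRNA, each opposite in sign to its value against the own set. The fit did not test why the scrambled groups differ. Under the other scalings, filter, weights, prior and own-set fits the counts were 6 with the NANCI shRNA, 7 or 8 with the LL34 shRNA (Smad7 was added by quantile normalization, -0.21, limma adjusted p = 0.0390, and by array weights, -0.22, limma adjusted p = 0.0313) and 8 for the difference. Genes not called changed sign: Bmp4 was at -0.0069 with the NANCI shRNA and -0.0047 with the LL34 shRNA under array weights, at -0.015 with the LL34 shRNA and 0.039 for the difference under quantile normalization, and Id4 was at 0.016 with the LL34 shRNA under array weights. With 1 array left out, the count of the 10 genes called ran from 4 to 7 with the NANCI shRNA, from 7 to 8 with the LL34 shRNA, and was 8 for the difference. Values that turned sign ran, with the NANCI shRNA, from -0.12 to 0.18 for Bmp2, -0.037 to 0.060 for Bmp4 and -0.018 to 0.14 for Id4. With the LL34 shRNA they ran from -0.041 to 0.11 for Bmp4 and -0.20 to 0.070 for Id4, and for the difference from -0.092 to 0.060 for Bmp4 and -0.025 to 0.25 for Id4. Called probe sets in the LL34 set split into 4011 higher and 2755 lower as deposited, 3307 and 3463 after quantile normalization, and 3062 and 3035 after median centring. Same-numbered arrays did not deviate together (r between -0.057 and 0.012 for NANCI arrays and between -0.12 and 0.045 for LL34 arrays). With 3 arrays per group, these values cannot decide whether the numbers pair samples. With the replicate block 6, 7 and 8 of the 10 genes were called for the NANCI shRNA, the LL34 shRNA and the difference (0 calls lost or gained), among 6906, 5257 and 6320 called probe sets, against 8228, 6766 and 7780 without it. The block ended 6 calls of other named genes, those of Bmpr2 (limma adjusted p = 0.0679) and Tcf4 (0.0660) with the NANCI shRNA, Nkx2-1 with the LL34 shRNA (0.0664), and the differences of Ube2o (0.0563), Acvr2b (0.0618) and Acvr2a (0.0888). The tied values of the LL34 set and 3 arrays per group limit how well the errors are known.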
